A study of Homo sapiens with 4 samples.

Results

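The molecular chaperones and heat shock proteins were taken as every row of the expression table whose gene symbol belonged to the HSP70, HSP110, HSP90, small HSP, mitochondrial chaperonin, TRiC/CCT, DNAJA, DNAJB, DNAJC or heat shock factor (HSF) families. The symbol rule found 84 rows of 60671. They carry 83 symbols, because the table names 2 rows HSPA14 (ENSG00000187522 and ENSG00000284024). GENCODE gives the name HSPA14 to the first and MSANTD7, an overlapping gene, to the second. The libraries were poly(A)+ RNA-seq of H9, a human embryonic stem cell line grown in mTeSR medium. There were 2 control libraries and 2 libraries of the genotype CFIm25 KO+ 3Flag-CFIm25 overexpression, called KO+OE here. CFIm25, encoded by NUDT21, is the subunit of the cleavage factor I complex that binds pre-mRNA upstream of poly(A) sites. In KO+OE a tagged copy was re-expressed from a lentiviral vector in 1 gene-edited clone. The edited clones were picked after selection on puromycin. The study's text describes them as a strong knockdown that left a protein shortened at its N-terminus, so KO is the label's word. The labels call the other group control, and the study's text calls it a mock control, its name for clones that received the empty CRISPR/Cas9 vector. A figure legend of the study keeps control, given as H9 cells, apart from mock control. The legend for this comparison writes mock (m+OE), with m for mutant and OE for overexpression. Which of these cells gave the control libraries is therefore not settled. The labels do not say whether the libraries of a group came from separate cultures, so p-values measure the spread between these libraries, which may be technical.

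Chaperones bind proteins that are not yet, or no longer, folded. HSP70 works in ATP-driven cycles that J-domain proteins (the DNAJ families) start and HSP110 proteins reset, HSP90 takes over late folding steps of kinases and receptors, small HSPs hold unfolded proteins without ATP, and the barrel-shaped chaperonins enclose them. Some families, such as HSP70 and HSP90, pair a form made at all times with a form that heat or proteotoxic stress switches on. The switch is HSF1, which binds repeats of the unit nGAAn in promoters. Human embryonic stem cells are known for high chaperonin levels.

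The promoter elements that HSF1 and the ER stress factors read are shown first, before the levels of the genes. RefSeq promoter windows (GRCh38.p14) were found for 72 of the 83 symbols, in 94 windows, and the 250 bases before each start were searched on both strands. A heat shock element of 3 units (TTCNNGAANNTTC or GAANNTTCNNGAA) stood in 6 member windows, 6.38%, against 0.441% of all 35116 windows. The 6 genes were HSP90AA1, HSP90AB1, HSPA8, HSPA6, HSPD1 and DNAJB6, so both the inducible and the constitutive HSP90 and the constitutive HSPA8 hold these letters. The elements of HSP90AA1, HSP90AB1, HSPA8 and HSPD1 lie before an internal start, inside the full extent of the gene, and the other windows of HSP90AA1, HSP90AB1 and HSPD1 lacked the element. Each stretch is printed 5′ to 3′ on the gene's strand with the element in capitals. Where elements overlapped, as at HSPD1, the whole run is in capitals.
HSP90AA1, chr14:102087112-102087140, minus strand: gagggttcTTCCGGAAGGTTCgggaggct
HSP90AB1, chr6:44247823-44247851, plus strand: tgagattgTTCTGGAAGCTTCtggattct
HSPA8, chr11:123062171-123062199, minus strand: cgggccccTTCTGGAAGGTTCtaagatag
HSPA6, chr1:161524458-161524486, plus strand: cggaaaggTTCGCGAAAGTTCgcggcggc
HSPD1, chr2:197500062-197500090, minus strand: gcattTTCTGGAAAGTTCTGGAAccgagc
DNAJB6, chr7:157336865-157336893, plus strand: agagccgaGAACCTTCGCGAAggtggggc

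HSP90AB1 and HSPA8 each held a further 3-unit element in the same window. The shorter 2-unit form (GAANNTTC or TTCNNGAA), which also lies inside every 3-unit element, stood in 23.4% of member windows and 11.6% of all windows. Of the inducible genes HSPA1A, HSPA1B, HSPB1 and DNAJB1 held this form and no 3-unit element. HSPH1 held neither form in its window. Only exact letters were counted, so a unit with a changed base, such as gac in the stretches below, was missed. The stretches of the HSPA1 pair show how alike the copies are next to the element.
HSPA1A, chr6:31815426-31815455, plus strand: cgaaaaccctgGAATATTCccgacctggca
HSPA1B, chr6:31827622-31827651, plus strand: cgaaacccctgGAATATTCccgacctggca

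The ER stress element (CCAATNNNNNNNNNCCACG or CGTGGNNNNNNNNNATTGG), the sequence through which the unfolded protein response acts on ER chaperone genes, stood in the windows of HSPA5 and HSP90B1, 2.13% of member windows and 0.0740% of all windows. These are the HSP70 and HSP90 of the endoplasmic reticulum. HSP90B1 held it at 2 places, of which the one nearer the start is shown.
HSPA5, chr9:125241386-125241414, minus strand: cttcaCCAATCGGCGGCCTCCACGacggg
HSP90B1, chr12:103930316-103930344, plus strand: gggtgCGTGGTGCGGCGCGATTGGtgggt

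The deposited values carry no unit and were read as TPM, reads per length of transcript scaled to a common library total. Levels are set beside each other between genes on that reading. The 4 columns summed to between 986853 and 987078, and the depth of the libraries is unknown because no counts were used. NUDT21 itself stood at 161 and 152 TPM in control and 162 and 157 TPM in KO+OE (limma adjusted p = 0.980), so the table does not tell the groups apart by this gene. Transcripts of the edited gene and of the tagged copy cannot be told apart in that row. The stem cell markers POU5F1, SOX2, NANOG, LIN28A and DNMT3B lay between 15.8 and 2212 TPM in every library. Of 7 marker rows of differentiating cells, COL1A1 (53.9 to 55.6 TPM) and GATA6 (4.35 to 8.39 TPM) were present, the others were at or below 0.86 TPM and SOX17 was listed at 0. Mitochondrially encoded genes took 21.0% to 22.1% of a library.

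Together the members held 0.558% to 0.570% of a library. Their summed level was 5589 and 5577 TPM in control and 5630.01 and 5511 TPM in KO+OE, so the groups overlapped. A few genes made up most of it, with 61.4% of the sum in the 5 most abundant members, and 17 members had a mean of at least 50 TPM. At the other end, 25 members had a mean under 1 TPM over the 4 libraries and were not tested, and HSPA7, HSPB3 and DNAJB3 were listed at 0 in every library. By family, HSP90 held 29.3% of the summed TPM, TRiC/CCT 26.7%, HSP70 20.4%, the mitochondrial chaperonin 6.77%, small HSPs 5.34%, DNAJC 4.70%, DNAJB 4.33%, the heat shock factors 1.16%, DNAJA 0.910% and HSP110 0.276%.

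**Figure D1:**
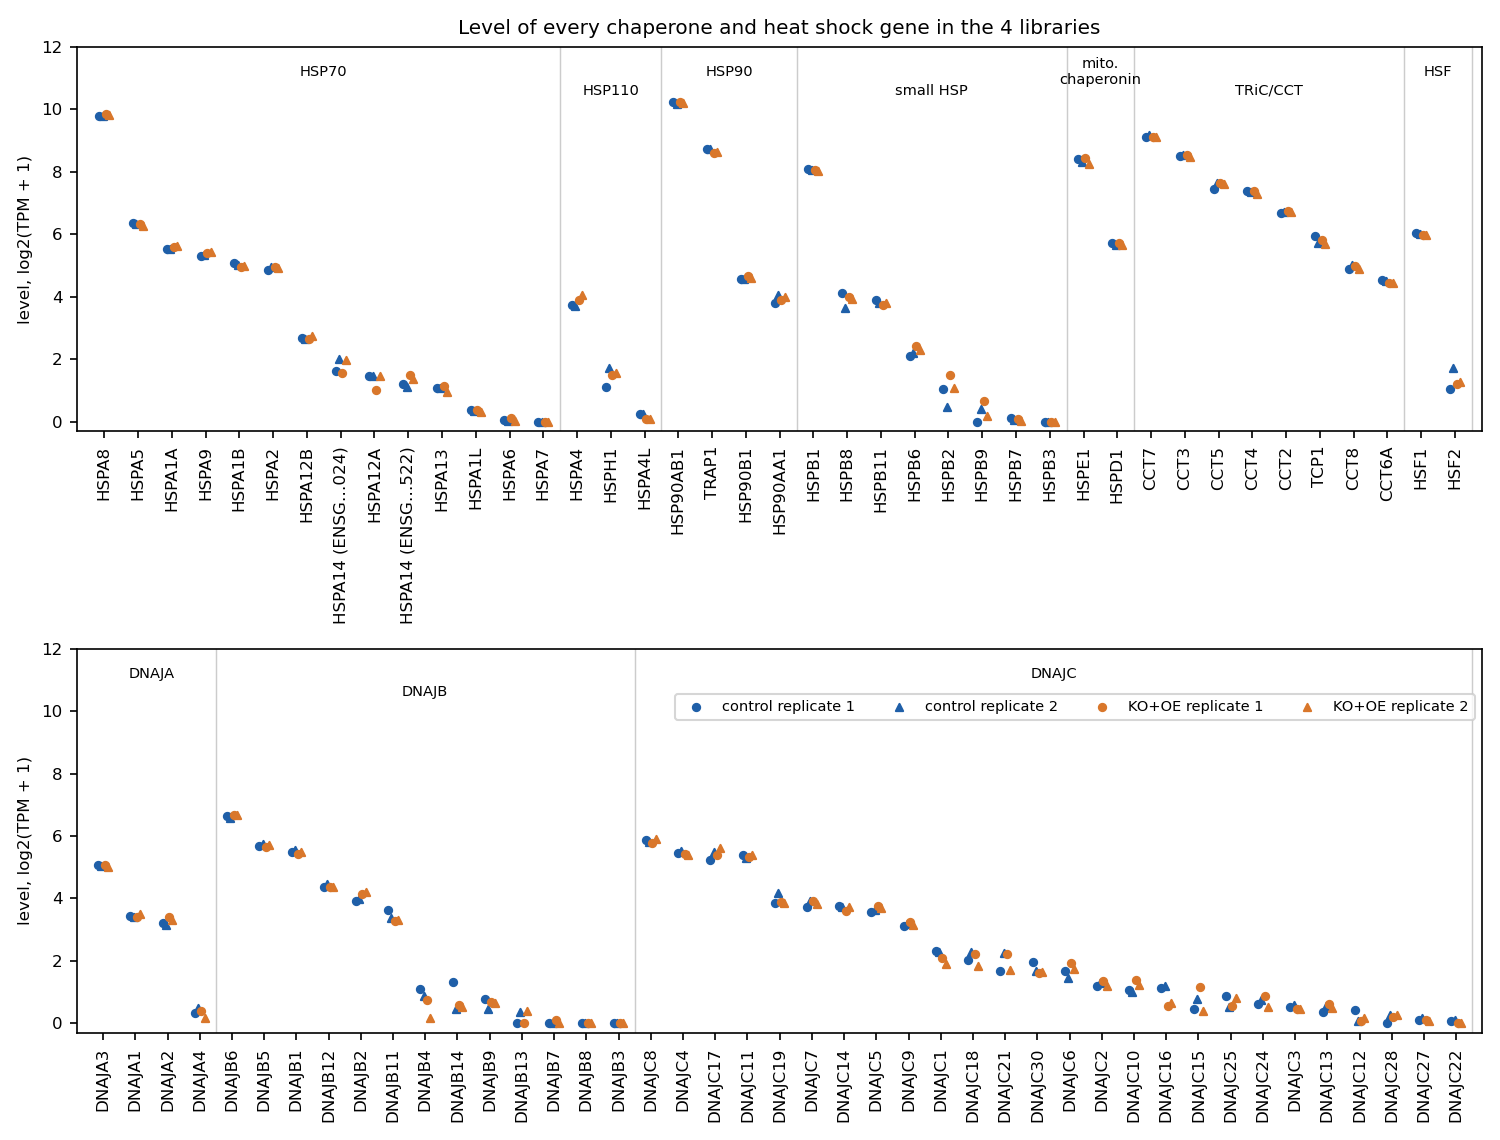
Level of every member in each library as log2(TPM + 1), grouped by family and ordered by mean level within a family. Circles and triangles are replicates 1 and 2, in blue for control and orange for KO+OE. The 4 points of nearly every abundant member lie on top of each other, from HSP90AB1 at the top to HSPA7, HSPB3 and DNAJB3 at 0.

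The first comparison asked whether any chaperone differed between control and KO+OE. In limma's test on log2(TPM + 1) over the 12319 genes whose mean reached 1 TPM, 0 of the 59 members tested had an adjusted p (Benjamini-Hochberg over all genes tested) under 0.05, against 1 of all genes tested, 0.00812%. The lowest adjusted p of a member was 0.928. At an unadjusted p under 0.05 there were 3 members (5.08%), 2 higher and 1 lower in KO+OE, beside 5.33% of all genes tested (2.26% higher and 3.06% lower). The libraries of the groups did not overlap in 25 members (42.4%), 14 higher and 11 lower, beside 34.1% of all genes tested (14.5% higher and 19.6% lower). The median log2 fold change was -0.0077 over the members and -0.012 over all genes tested, with 28 members higher and 31 lower. In bulk libraries a lower value can stand for fewer cells that express a gene or for less of its RNA per cell, and these cannot be told apart. The 95% interval lay within a 2-fold difference in TPM + 1 either way in 58 of the 59 members, the exception being HSPB2. Over all genes tested this held for 11409 of 12319. For members at low levels such an interval allows a larger difference in TPM. HSPB2 was also the one member that reached the filter through 1 group alone. Without it 27 of 58 members were higher, 24 did not overlap (13 higher), and the median was -0.010. The added 1 TPM draws fold changes of low members towards 0.

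**Figure D2:**
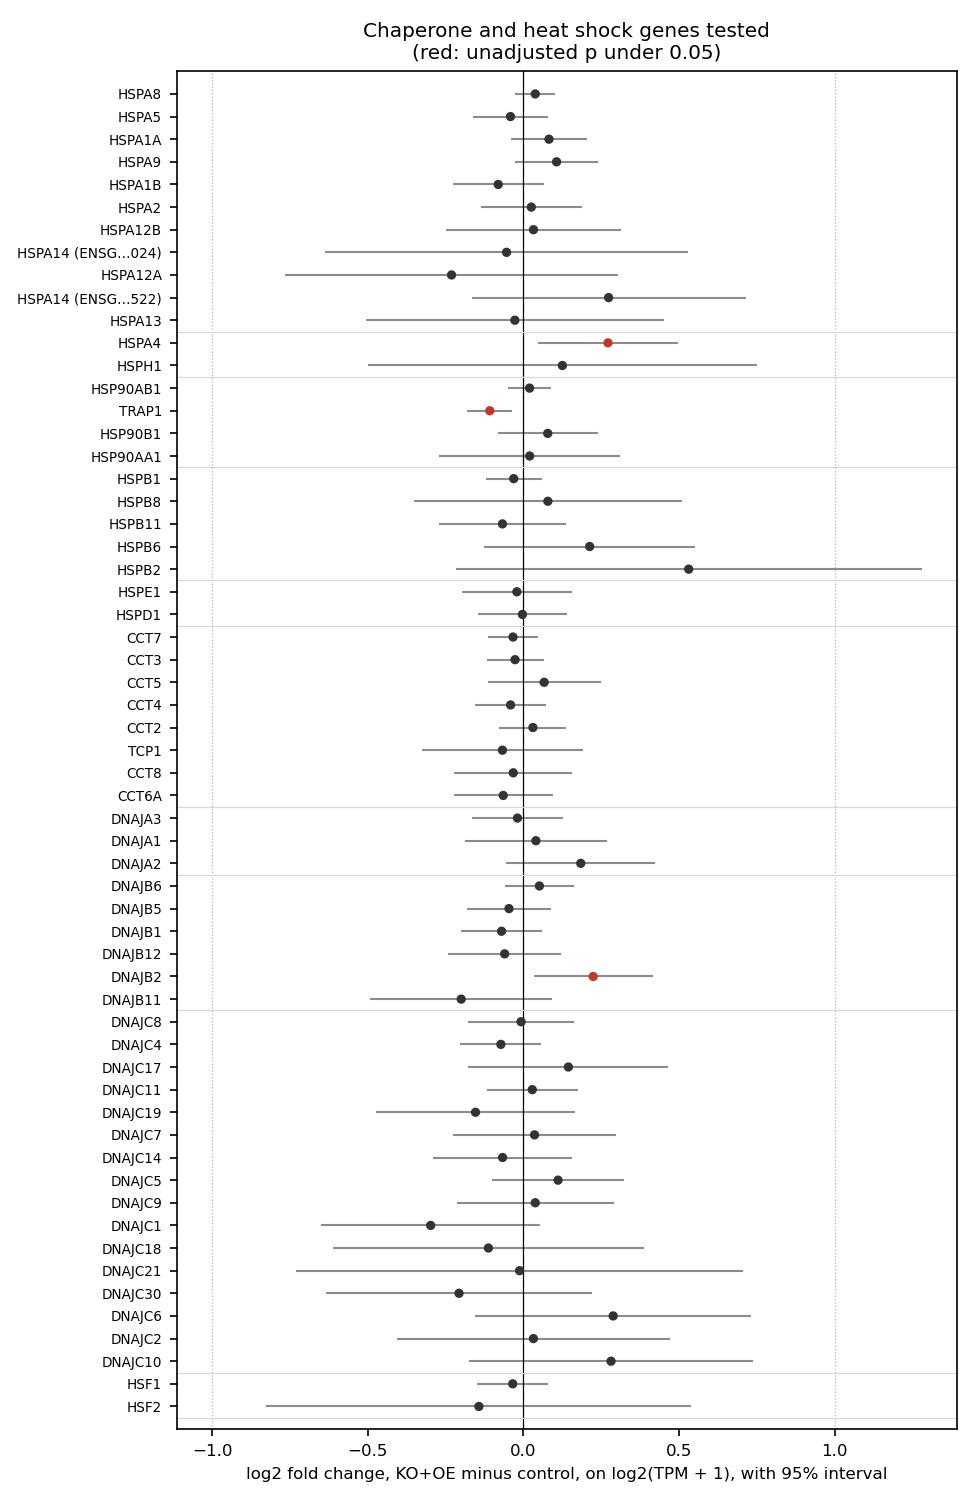
Log2 fold change (KO+OE minus control, on log2(TPM + 1)) of the 59 members tested, with limma's 95% interval, grouped by family. The red points, HSPA4, TRAP1 and DNAJB2, are the 3 with an unadjusted p under 0.05. All intervals but that of HSPB2 lie between the dotted lines at a 2-fold difference in TPM + 1.

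TRAP1, the HSP90 of mitochondria (ENSG00000126602, chr16:3658037-3717524, GRCh38.p14), stood at 427 and 424 TPM in control and 391 and 398 TPM in KO+OE. Both KO+OE libraries were below both controls. The log2 fold change was -0.11 (95% interval -0.18 to -0.04, unadjusted p = 0.012 and adjusted p = 0.928 by limma), so this member, the fourth by level, missed the threshold after adjustment over all genes tested. HSPA4, an HSP110-type nucleotide exchange factor for HSP70 (ENSG00000170606, chr5:133052013-133106449), stood at 12.3 and 11.9 TPM in control and 14.01 and 15.7 TPM in KO+OE. Here both KO+OE libraries were above both controls, by 0.27 on the log2 scale (0.05 to 0.50, unadjusted p = 0.027 and adjusted p = 0.928 by limma). DNAJB2, a J-domain protein known from neurons that hands ubiquitylated clients to the proteasome (ENSG00000135924, chr2:219279366-219286895), stood at 14.1 and 14.9 TPM against 16.8 and 17.4 TPM. Its KO+OE libraries were also both above the controls, by 0.22 (0.03 to 0.41, unadjusted p = 0.030 and adjusted p = 0.928 by limma). Over the 13 alternatives the log2 fold change ranged from -0.12 to -0.08 for TRAP1, from 0.20 to 0.35 for HSPA4 and from 0.18 to 0.26 for DNAJB2, and no adjusted p of these genes was under 0.852.

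**Figure D3:**
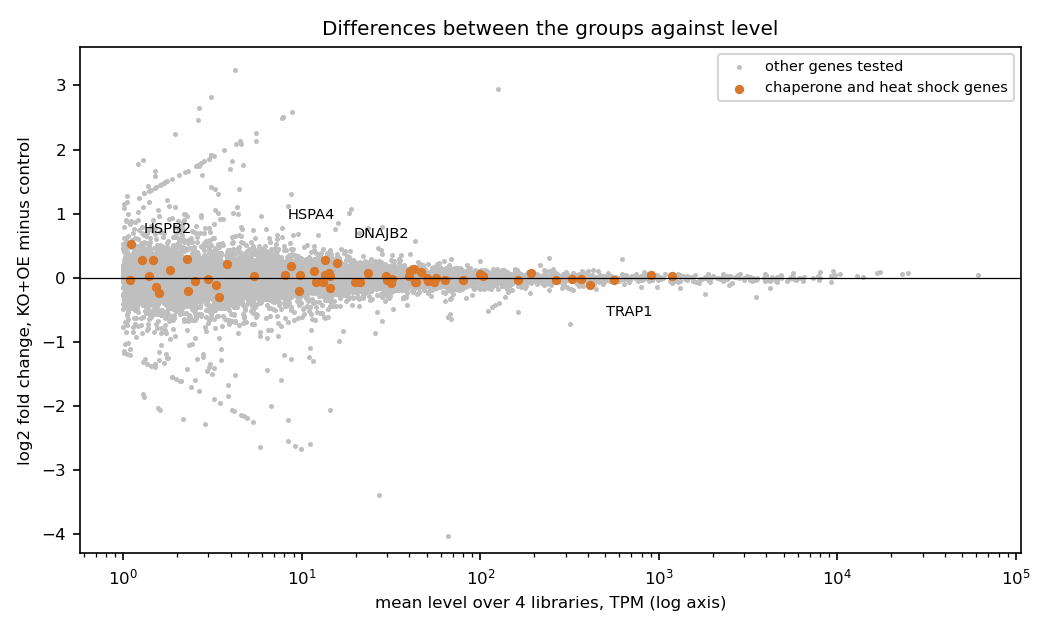
Log2 fold change (KO+OE minus control) against the mean level over the 4 libraries (TPM, log axis) for all 12319 genes tested, with the chaperone and heat shock genes in orange. The members lie within the band of the other genes, from -0.30 to 0.53, and the band narrows as the level increases.

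In the HSP90 family, HSP90AB1, the constitutive cytosolic form, was the most abundant member and ranked 120 of the 12319 genes tested. It stood at 1195 and 1165 TPM in control and 1207 and 1185 TPM in KO+OE, and the groups overlapped (log2 fold change 0.02, -0.05 to 0.09). HSP90AA1, the heat-inducible cytosolic form, was far lower, at 13.0 and 15.8 TPM in control and 14.02 and 15.1 TPM in KO+OE (0.02, -0.27 to 0.31). As a share of HSP90AB1 in TPM this was 1.09% to 1.36%, between 73.8-fold and 92.0-fold less, with no separation of the groups. Of the HSP90AA1 transcript, 11.5% lies in exact stretches of at least 100 bases shared with transcripts of other genes, so its level is less certain than that of a unique gene. HSP90B1 of the ER stood at 22.8 and 22.7 TPM in control and 24.7 and 23.5 TPM in KO+OE, both KO+OE libraries above the controls (0.08, -0.08 to 0.24, adjusted p = 0.948 by limma).

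Among the HSP70 and HSP110 families, HSPA8, the constitutive cytosolic HSP70, came next after HSP90AB1, at 882 and 894 TPM in control and 918 and 905 TPM in KO+OE. Its groups did not overlap, at a log2 fold change of 0.04 (-0.03 to 0.10, adjusted p = 0.938 by limma). The heat-inducible HSPA1A stood at 45.1 and 45.7 TPM in control and 47.8 and 48.4 TPM in KO+OE. Its neighbour and near-identical copy HSPA1B stood at 33.0 and 31.8 TPM against 30.1 and 31.0 TPM, the opposite order, and neither difference passed the test (0.08, -0.04 to 0.20, and -0.08, -0.23 to 0.07). Exact stretches shared with transcripts of other genes cover 77.7% of HSPA1A and 74.1% of HSPA1B, so the split of reads between the copies is uncertain. The ratio of HSPA1A to HSPA1B in TPM was 1.37 and 1.44 in control and 1.59 and 1.56 in KO+OE. Summed, the pair stood at 78.0 and 77.4 TPM in control and 77.9 and 79.3 TPM in KO+OE, and the groups overlapped. That sum was 8.49% to 8.85% of the HSPA8 level in TPM in every library.

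HSPA6, the HSP70 that is made only under strong stress, was near 0 in every library (0.02 to 0.09 TPM), with the 3-unit element shown above in its promoter, and the closely related HSPA7 was listed at 0. HSPA5, also known as BiP, the HSP70 of the ER lumen, stood at 81.5 and 79.8 TPM in control and 80.3 and 76.4 TPM in KO+OE. HSPA9, the mitochondrial HSP70, stood at 38.5 and 39.1 TPM in control and 41.1 and 42.7 TPM in KO+OE, without overlap (0.11, -0.03 to 0.24, adjusted p = 0.931 by limma). HSPA14, a ribosome-associated HSP70 (ENSG00000187522), stood at 1.31 and 1.17 TPM against 1.85 and 1.57 TPM (0.27, -0.17 to 0.71), and the row that GENCODE names MSANTD7 (ENSG00000284024) at 2.11 and 3.05 TPM against 1.95 and 2.96 TPM (-0.05, -0.64 to 0.53). HSPA12A, a distant HSP70 relative, had the second lowest fold change of a tested member, at 1.79 and 1.76 TPM against 1.04 and 1.74 TPM (-0.23, -0.77 to 0.30), and 1 KO+OE library made nearly all of it. HSPA13, an HSP70-like protein of the ER and microsomes, was between 0.93 and 1.22 TPM. HSPH1, the heat-inducible HSP110, was low at 1.17 and 2.28 TPM in control and 1.85 and 1.97 TPM in KO+OE, and its control replicates differed by 0.60 on the log2 scale, among the 3 largest replicate differences of tested members. Against HSPA4, its constitutive relative, HSPH1 was 9.54% to 19.1% in TPM. Of the 11 HSP70 rows tested 6 were higher and 5 lower, and the median log2 fold change was 0.03.

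**Figure D4:**
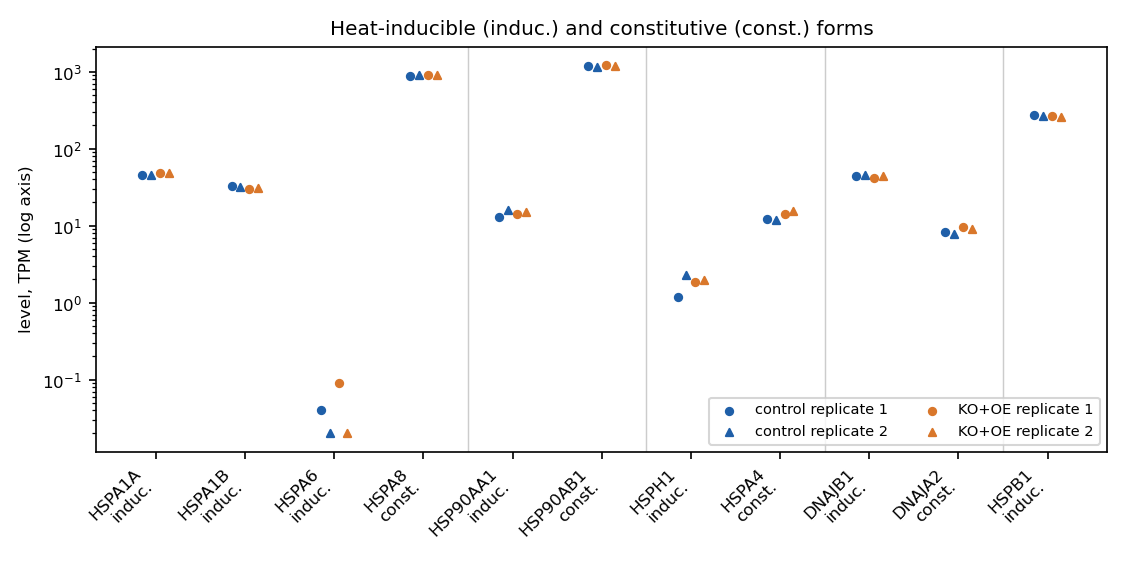
Level in TPM (log axis) of the heat-inducible forms and their constitutive counterparts in each library, with control in blue and KO+OE in orange. HSPA8 and HSP90AB1 lie above their inducible relatives in all 4 libraries, HSPH1 lies below HSPA4, and DNAJB1 lies above DNAJA2.

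In the HSP70, HSP90 and HSP110 families the inducible forms were thus lower than the constitutive form they were set against. In the one pair compared among the J-domain proteins, DNAJB1 and DNAJA2, the inducible gene was the higher. The order depends on the counterpart chosen. As means over the 4 libraries, HSPA1A (46.7 TPM) was above the mitochondrial HSPA9 (40.4 TPM), and DNAJB1 (43.9 TPM) was below DNAJB6 (99.0 TPM). DNAJB1, the heat-inducible partner of HSP70, stood at 44.3 and 45.6 TPM in control and 42.1 and 43.5 TPM in KO+OE, and DNAJA2, a constitutive one, at 8.30 and 7.83 TPM against 9.6 and 9.0 TPM. DNAJB1 was lower and DNAJA2 higher in both KO+OE libraries, with adjusted p-values of 0.942 and 0.932 by limma. The ratio of DNAJB1 to DNAJA2 in TPM was 534% and 583% in control and 439% and 483% in KO+OE, a difference of -0.28 in log2 ratio against a within-group SD of 0.094. Summed over the 7 inducible forms (HSPA1A, HSPA1B, HSPA6, HSPB1, HSPH1, HSP90AA1, DNAJB1) and the 4 constitutive counterparts (HSPA8, HSP90AB1, HSPA4, DNAJA2), the ratio was 19.53% and 19.47% in control and 18.69% and 18.88% in KO+OE. The groups did not overlap, with a difference of -0.054 in log2 ratio and a within-group SD of 0.0078. HSPB1 (mean 265 TPM) was most of the inducible sum (399 to 410 TPM) and has no small HSP as its counterpart. Most of the constitutive sum (2079 to 2149 TPM) was HSP90AB1 (mean 1188 TPM) and HSPA8 (mean 900 TPM). The summed ratio therefore mainly sets HSPB1 against HSP90AB1 and HSPA8, and it was not computed without HSPB1. These ratios are a description, since an exact two-sided permutation test of 2 against 2 libraries cannot go below p = 0.33 whatever the values. Of the 6 inducible forms tested 3 were higher and 3 lower, while all 4 constitutive forms were higher, 3 of them without overlap, and HSPA4 was the one at an unadjusted p under 0.05. Over all genes tested 14.5% were higher without overlap and 2.26% were higher at an unadjusted p under 0.05.

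HSF1, the factor that drives the heat shock response, stood at 64.7 and 62.9 TPM in control and 62.0 and 62.4 TPM in KO+OE, lower without overlap (-0.03, -0.15 to 0.08, adjusted p = 0.968 by limma). HSF2, a related factor, stood at 1.07 and 2.28 TPM in control and 1.31 and 1.41 TPM in KO+OE. Its control replicates differed by 0.66 on the log2 scale, the largest replicate difference of any member tested.

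Most of the small HSP level came from HSPB1, also known as HSP27, at 273 and 264 TPM in control and 266 and 259 TPM in KO+OE, with overlap (-0.03, -0.12 to 0.06). It was the most abundant of the heat-inducible forms, and 18.0% of its transcript is shared exactly with other genes' transcripts. HSPB2, a small HSP of muscle, was at 1.08 and 0.38 TPM in control and 1.84 and 1.11 TPM in KO+OE. It reached the mean of 1 TPM through KO+OE alone (group means 0.73 and 1.48 TPM), so its log2 fold change of 0.53 is a description. Of its transcript, 85.5% is shared exactly with other genes' transcripts, chiefly with the readthrough gene that spans HSPB2 and C11orf52. With a pseudocount of 0.1 that value was 1.03 and with 5 it was 0.18, below that of HSPA4 (0.21), and leaving out control replicate 1 or 2 gave 0.83 or 0.24. Over the 5 small HSPs tested the median was 0.08 on the log2 scale. HSPB2 is counted in that median, which was not redone without it and is a description.

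The chaperonin TRiC/CCT folds actin and tubulin in the cytosol, and each of its rings holds a single copy of every subunit. The mRNA levels of the 8 subunits were far apart in TPM. CCT7 was at 556, 578, 557 and 551 TPM (both controls first, then both KO+OE), CCT3 at 353 to 371 TPM, CCT5 at 176 to 201 TPM, CCT4 at 156 to 168 TPM and CCT2 at 102 to 107 TPM. Further down, TCP1 was at 51.0 to 61.4 TPM, CCT8 at 28.6 to 31.8 TPM and CCT6A at 20.7 to 22.1 TPM. The ranges of these genes do not overlap, so the order was the same in every library, and the highest subunit was 25.2-fold to 26.8-fold above the lowest.

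Across the 8 subunits the order of TPM followed the GC content of the canonical transcript, with Spearman's rho 0.93 in each library. The 4 values are not independent, as they share the same genes. CCT7 and CCT3 had the highest GC content, 51.6% and 50.6%, and the other subunits lay between 41.5% and 44.5%. Over all 84 members rho was 0.20 to 0.22 with GC content and -0.14 to -0.11 with transcript length. The 18 members with a GC content of at most 40% had a median of 0.70 TPM, and the medians of the other 4 GC classes lay between 11.5 and 14.3 TPM. The part of GC content in the levels was not tested.

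**Figure D5:**
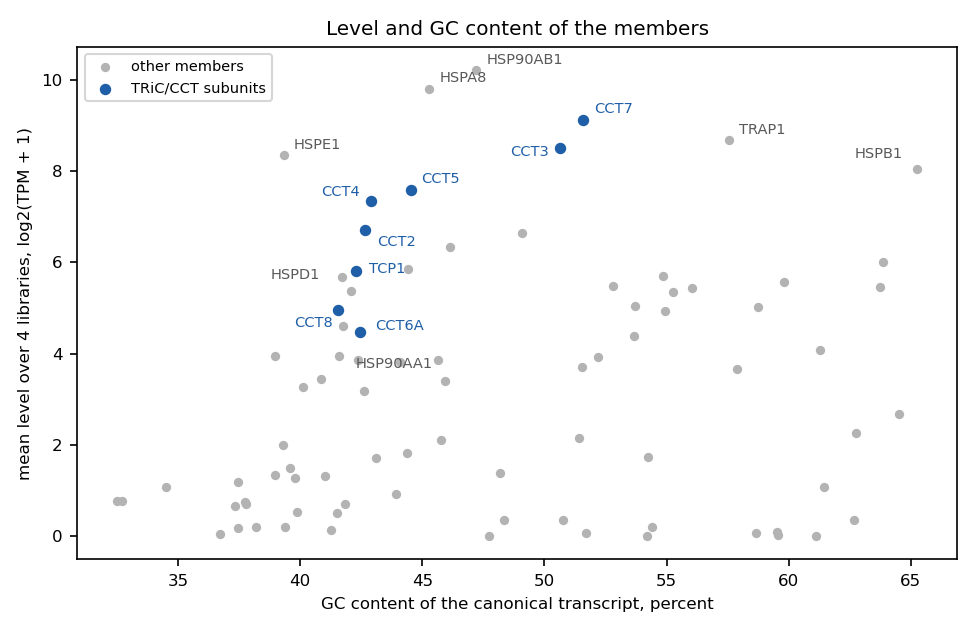
Mean level over the 4 libraries, as log2(TPM + 1), against the GC content of the canonical transcript for all 84 members, with the TRiC/CCT subunits in blue. The subunits climb from CCT6A and CCT8 to CCT3 and CCT7 with GC content, while the other members scatter, with HSPE1 high at a GC content of 39.3%.

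Between the groups the TRiC/CCT subunits differed little, with 6 of 8 lower in KO+OE and 2 higher, a median log2 fold change of -0.03 and a range of -0.07 to 0.07. None of the 8 had an unadjusted p under 0.05, and CCT6A alone did not overlap (22.0 and 21.6 TPM against 20.9 and 20.7 TPM). The mitochondrial chaperonin HSPD1 and its lid HSPE1, which sit side by side and work as a pair, were also unequal. HSPE1 stood at 341 and 317 TPM in control and 344 and 306 TPM in KO+OE, and HSPD1 at 51.7 and 49.2 TPM against 51.6 and 49.1 TPM. The ratio of HSPE1 to HSPD1 in TPM was 6.23 to 6.67. The HSPE1 value is uncertain, because 58.2% of its transcript is shared exactly with other genes' transcripts, among them the readthrough gene with MOB4. For HSPD1 the shared part is 17.3%, so both sides of the ratio are affected.

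The 43 rows of the J-domain (DNAJ) families split into a few moderately abundant genes and many near 0, with 25 tested (3 of 4 DNAJA, 6 of 13 DNAJB and 16 of 26 DNAJC). DNAJB6, a suppressor of polyglutamine aggregation, was the highest at 99.4 and 95.1 TPM in control and 102 and 100.05 TPM in KO+OE (0.05, -0.06 to 0.16), with 26.7% of its transcript shared exactly with other genes' transcripts, as in part for 30 of the 84 members. DNAJC8, a splicing-associated member, was at 53.5 to 59.4 TPM and DNAJB5 at 48.9 to 52.6 TPM, both with overlapping groups. The J-domain partners in the ER were lower. DNAJB11, a BiP co-chaperone, stood at 11.3 and 9.40 TPM against 8.71 and 9.0 TPM (-0.20, -0.49 to 0.09), and DNAJC1, an ER membrane protein, at 3.98 and 3.85 TPM against 3.26 and 2.75 TPM (-0.30, -0.65 to 0.05, adjusted p = 0.931 by limma), the largest lower value of a tested member. DNAJC10, a disulfide reductase of the ER, went the other way, at 1.11 and 1.0 TPM against 1.63 and 1.37 TPM (0.28, -0.17 to 0.74). DNAJB9 and DNAJC3, both induced by ER stress, were under 1 TPM in every library and not tested. Of the 6 ER forms tested, 2 were higher and 4 lower, with a median of -0.03.

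Mitochondrial J-domain proteins gave the same picture of small differences. DNAJA3 was at 31.1 to 32.6 TPM, and DNAJC11, which is tied to cristae, at 38.2 to 40.8 TPM. DNAJC19, a partner of the import motor, stood at 13.6 and 17.2 TPM against 13.8 and 13.4 TPM (-0.15, -0.47 to 0.16). DNAJC30, known for the turnover of complex I, stood at 2.90 and 2.23 TPM against 2.03 and 2.12 TPM, without overlap (-0.21, -0.63 to 0.22), and DNAJC15 ranged from 0.32 to 1.25 TPM. Of the 8 mitochondrial forms tested, 6 were lower and 2 higher in KO+OE, with a median log2 fold change of -0.02, and TRAP1 was the one at an unadjusted p under 0.05. DNAJC6, the auxilin that uncoats clathrin vesicles, stood at 2.22 and 1.71 TPM against 2.85 and 2.38 TPM (0.29, -0.16 to 0.73), among the 5 largest higher values.

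Among the 25 members that were not tested, the highest value in any library was 1.48 TPM. Of the 22 with a value above 0, the groups did not overlap in 6, named after their values were seen, and all 6 were lower in KO+OE (DNAJC16, HSPA4L, DNAJB4, DNAJC3, DNAJC27 and DNAJC22). That is 27.3%, beside 11.9% lower and 10.7% higher among all 14623 genes below the filter with a value above 0. DNAJC16 stood at 1.18 and 1.30 TPM in control and 0.47 and 0.56 TPM in KO+OE, and HSPA4L, an HSP110 gene, at 0.19 and 0.20 TPM against 0.07 and 0.06 TPM. With no filter on low values their unadjusted p was 0.019 and 0.026, with an adjusted p of 0.873 for both by limma. At such levels the number of reads behind a value is unknown. The spread of replicates followed the level: among members tested with a mean of 1 to 5 TPM the median difference between the control replicates was 0.25 on the log2 scale, between 5 and 50 TPM it was 0.07 and from 50 TPM it was 0.05. For all genes tested the same medians were 0.19, 0.10 and 0.04.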

How the data were processed

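Per the labels, poly(A)+ RNA was enriched with oligo(dT) beads, fragmented, amplified and sequenced on a NovaSeq. The submitters' processing notes name HISAT2, featureCounts, Subread, DESeq2 and hg38, with no roles or versions. The authors deposited 1 table with a column per library and no unit. Its values were read as TPM, because the 4 deposited columns sum to nearly the same total. A near-equal total does not show whether values were scaled by transcript length, so comparisons between genes rest on this reading. There were 0 other columns of per-sample values. How reads shared between genes were counted is not given in the sources used here.

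Genes whose mean reached 1 TPM were tested on log2(TPM + 1) with limma 3.58.1 (R 4.3.3, mean-dependent prior, two-sided, group as the only term), adjusted by Benjamini-Hochberg over all 12319 genes. The code was tested on simulated data. Intervals are limma's at 95%. GC content, length and shared stretches of at least 100 bases came from GENCODE 44 transcripts on GRCh37, promoters and positions from RefSeq on GRCh38.p14.

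The members and lists were chosen with earlier results of these data known. Named were NUDT21, members with a mean of at least 50 TPM, those on the inducible, constitutive, ER and mitochondrial lists, HSF1 and HSF2, members at an unadjusted p under 0.05, the 5 largest rises and falls, the 3 with the largest replicate difference, members at 0, and, of the co-chaperone and unfolded protein response lists, genes at an unadjusted p under 0.05 and the 5 highest. Deviations of same-numbered libraries from their group means correlated at -0.049, so the replicate numbers were not taken as pairs. Alternatives were the pseudocount, the filter, 3 rescalings, the prior, the replicate block and leaving out each library.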

Additional observations from a re-analysis of the deposited data

How the results depend on the processing

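No named gene had an adjusted p under 0.852 in any of the 13 alternatives. Of 523 alternative values for 41 single genes, 498 kept their direction and side of the threshold and 25 changed sign. The filters, the prior and the replicate block leave the log2 fold change of a gene as it is. Its sign was therefore fixed in advance under these settings, and only its p could move. Members at an unadjusted p under 0.05 numbered 3 in the main analysis, 5 with no filter and 5 without the mean-dependent prior, and 1 to 3 with 1 library left out (1 without KO+OE replicate 2). Over all genes, the 1 call at an adjusted p under 0.05 became 0 with a pseudocount of 0.1 or 5, no filter, a filter at 5 TPM, quantile normalization and the replicate block, and 0 to 9 with 1 library left out (9 without control replicate 2). At an unadjusted p, 656 genes became 1314 with no filter and 412 with the filter at 5 TPM, where other numbers of genes are tested. With the replicate block the members at an unadjusted p stayed at 3, but the numbers pair nothing here. The family medians could not change with it, because each group holds the same replicate numbers. Under other settings the median log2 fold change was 0.034 for HSP90 (rescaled without mitochondrially encoded genes) and -0.031 for small HSP (filter at 5 TPM). With no filter it was 0.010 for DNAJA, -0.016 for DNAJB, -0.010 for DNAJC and 0.125 for HSP110. For all members it was 0.012 with quantile normalization, and for HSF -0.034 with the filter at 5 TPM. The mitochondrial chaperonin turned to 0.00092 with median ratios, 0.0045 with quantile normalization and 0.0021 without mitochondrially encoded genes. Leaving out 1 library gave -0.022 to 0.048 for HSP70, -0.032 to 0.038 for HSP90, -0.057 to 0.162 for small HSP, -0.068 to 0.0042 for TRiC/CCT, 0.0092 to 0.091 for DNAJA, -0.075 to -0.015 for DNAJB, -0.026 to 0.053 for DNAJC, -0.245 to 0.067 for HSF, 0.058 to 0.339 for HSP110, -0.072 to 0.048 for the mitochondrial chaperonin and -0.017 to 0.013 for all members. The sign turned for HSPD1 (0.0098 with median ratios, 0.012 with quantile normalization, 0.011 without mitochondrially encoded genes), DNAJC8 (0.0054, 0.017 and 0.0065 likewise) and DNAJA3 (0.0062 with quantile normalization). With 1 library left out it turned for HSPA13 (-0.129 to 0.073), HSPH1 (-0.17 to 0.42), HSP90AA1 (-0.11 to 0.15), HSPE1 (-0.106 to 0.064), HSPD1 (-0.039 to 0.032), CCT3 (-0.063 to 0.0085), CCT5 (-0.030 to 0.163), TCP1 (-0.194 to 0.059), DNAJA3 (-0.048 to 0.0092), DNAJC8 (-0.082 to 0.067), DNAJC11 (-0.013 to 0.070), DNAJC19 (-0.31 to 0.0058), HSF2 (-0.48 to 0.19) and NUDT21 (-0.012 to 0.066). Leaving out 1 library moved 29 of the 41 single genes by over 1.5 times or turned them, among them DNAJB11 (-0.32 without control replicate 2, -0.078 without control replicate 1), DNAJC30 (-0.071 without control replicate 1, -0.34 without control replicate 2), HSPA12A (-0.44 to -0.018) and DNAJC6 (0.16 to 0.41). The cause was not tested. With 2 libraries a group and unknown depth, differences smaller than the intervals given cannot be told from the replicate spread.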

Other observations

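Co-chaperones and other folding factors, such as prefoldin subunits, were described from a list of 33 genes, of which 31 were tested. In KO+OE, 14 were higher and 17 lower, with a median log2 fold change of -0.011 beside -0.012 over all genes tested, and 0 had an adjusted p under 0.05 by limma. CHORDC1, counted among the lower, passed the filter through the controls alone (control mean 1.305 TPM, KO+OE mean 0.98 TPM). The counts and the median were not redone without it. The 5 most abundant were SERPINH1, the collagen chaperone of the ER (487 TPM as the mean of the 4 libraries), PFDN5 of prefoldin, which delivers actin and tubulin to TRiC (485 TPM), BAG6, which escorts tail-anchored proteins (292 TPM), FKBP4 (258 TPM) and STIP1, which links HSP70 to HSP90 (222 TPM). PFDN2, another prefoldin subunit, was at 66.8 and 65.5 TPM in control and 70.9 and 74.9 TPM in KO+OE, and was the one gene of the list at an unadjusted p under 0.05, beside 5.33% of all genes tested (log2 fold change 0.14, 0.01 to 0.26, unadjusted p = 0.035 and adjusted p = 0.928 by limma).

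Of 15 genes of the unfolded protein response all were tested, 10 were higher and 5 lower, the median log2 fold change was 0.02, and 0 had an adjusted p under 0.05 by limma. At an unadjusted p under 0.05 there were 2, EIF2AK3 and XBP1, beside 5.33% of all genes tested. EIF2AK3, the ER stress sensor PERK, was at 0.66 and 1.01 TPM in control and 1.89 and 1.83 TPM in KO+OE. It reached the mean of 1 TPM through KO+OE alone, so its log2 fold change of 0.65 is a description and its p is no support. ERN1 passed the filter through the controls alone (control mean 1.33 TPM, KO+OE mean 0.98 TPM). EIF2AK3 is counted above among the higher genes and ERN1 among the lower. The counts and the median were not redone without them. XBP1, the transcription factor of the IRE1 branch, was at 114 and 115 TPM against 106 and 106 TPM (-0.12, -0.21 to -0.02, unadjusted p = 0.023 and adjusted p = 0.928 by limma). The 5 most abundant genes, CALR, ATF4, PDIA3, PDIA6 and PDIA4, had means of 120.3 to 485 TPM and log2 fold changes between 0.008 and 0.036. A further 116 rows carried the names of pseudogenes of the chaperones. Of these, 97 were listed at 0 in every library, and together they held 0.92 to 1.90 TPM.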
